A study of Mus musculus with 2 samples.

Results

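Imprinted genes, which are read mainly from the copy inherited from 1 parent, were described across the cell types of the mouse pituitary and between old and young animals. The members were the 10 genes Dlk1, Meg3, Rian, Mirg, Ndn, Peg3, Grb10, Plagl1, Asb4 and Gnas, taken by symbol from the 32285 genes of the deposited tables, and all 10 were found once. Dlk1, Meg3, Rian and Mirg belong to the same cluster on chromosome 12, and the other 6 lie elsewhere. The samples were 1 library of old (20 months) and 1 library of young (2 months) male C57BL/6 mice, an inbred strain, with 10 pituitary glands pooled into each library. Whole glands were dissociated, red blood cells were lysed, and single cells were sequenced from the 3′ end in droplets, so each unique molecular identifier (UMI) counts 1 captured transcript. The old library held 138427393 UMIs and the young library 154510099. With 1 library per age there is no replicate check, no difference between ages was tested, and every interval given is a 95% interval for counting error only. The reads carry no record of the parent of origin, so imprinting itself was not measured.

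In the Dlk1-Meg3 cluster, Dlk1 is expressed from the paternal copy and the long noncoding RNA genes Meg3, Rian and Mirg from the maternal copy, under a shared control region between Dlk1 and Meg3 that is methylated on the paternal chromosome. Dlk1 codes for a transmembrane protein with EGF-like repeats, related to Notch ligands, that is known from progenitor cells and from hormone cells of the pituitary. Meg3 RNA is known from normal pituitary cells and for its loss in human non-functioning pituitary tumours. Ndn (necdin), Peg3 (a zinc finger protein) and Plagl1 (a zinc finger transcription factor) are paternally expressed. Grb10 (an adaptor that dampens insulin and growth factor signalling) and Asb4 (an ankyrin repeat protein of ubiquitin ligases) are maternally expressed in most mouse tissues. Gnas codes for the stimulatory G protein subunit that carries the signal of the receptors for growth hormone releasing hormone and corticotropin releasing hormone, and its main transcript is expressed largely from the maternal copy in the pituitary.

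Promoter windows of Dlk1 and Meg3 are shown because the question of whether both genes are carried by the same cells sets these neighbours side by side. In the RefSeq table of build GRCm38.p6, which is older than the GRCm39 build named in the submitters' processing notes and was used for sequence, names and neighbours only, the 4 genes lie on the same strand in the order Dlk1, Meg3, Rian, Mirg. All 10 members had at least 1 promoter entry, taken from 250 bases before to 50 bases after the listed start, on the strand of the gene. The Dlk1 window lies inside the Dlk1 gene as listed in the gene table (109452485 to 109463336), so it does not cover the start of the gene given there. The Meg3 gene is listed from 109540996, inside the first Meg3 window. The windows shown thus do not cover like parts of their genes. Capitals mark CG pairs and the motif TATAAA.
Dlk1, chr12:109452573-109452872, plus strand: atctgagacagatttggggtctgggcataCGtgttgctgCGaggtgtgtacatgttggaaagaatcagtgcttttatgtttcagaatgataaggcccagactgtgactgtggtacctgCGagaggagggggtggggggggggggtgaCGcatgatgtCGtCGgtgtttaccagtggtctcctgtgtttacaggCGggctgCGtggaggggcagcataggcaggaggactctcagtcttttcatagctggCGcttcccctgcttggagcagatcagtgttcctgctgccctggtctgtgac
Meg3, chr12:109540746-109541045, plus strand: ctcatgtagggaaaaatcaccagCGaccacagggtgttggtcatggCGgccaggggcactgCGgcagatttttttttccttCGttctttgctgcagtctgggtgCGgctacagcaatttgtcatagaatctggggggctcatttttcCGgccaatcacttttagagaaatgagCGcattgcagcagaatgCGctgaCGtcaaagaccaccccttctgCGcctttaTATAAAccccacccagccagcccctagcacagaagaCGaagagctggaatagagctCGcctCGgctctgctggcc
The Dlk1 window held 9 CG pairs and the first Meg3 window 13, against a median of 7 over 32851 promoter windows of the same length. The letters TATAAA were in the Meg3 window, starting 25 bases before the listed start and overlapping a match on the other strand, and they were on neither strand of the Dlk1 window. On the strand of the gene, 8.32% of all windows held them, and 13.6% held them on either strand. The windows of Rian, with 0 CG pairs, and of Mirg, with 10, held no match.

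The bodies of the 3 noncoding genes also hold microRNAs in that reference, with 3 mature sequences inside Meg3, 6 inside Rian and 19 inside Mirg. A few are shown to illustrate what these host RNAs contain, with the seed (bases 2 to 8) in capitals and the sequences taken from RefSeq.
mmu-miR-770-5p, in Meg3: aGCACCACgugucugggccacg
mmu-miR-370-3p, in Rian: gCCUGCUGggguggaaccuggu
mmu-miR-410-3p, in Mirg: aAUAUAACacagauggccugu
mmu-miR-453, in Mirg: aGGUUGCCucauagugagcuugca
mmu-miR-496a-5p, in Mirg: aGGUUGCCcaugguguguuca
The last pair share the seed GGUUGCC, and no other seed was shared among these mature sequences. The libraries captured polyadenylated RNA, so the host transcripts were measured and the microRNAs were not. The protein-coding gene Rtl1 lies on the opposite strand across the end of Meg3 and the start of Rian, and the strand setting of the counting is not given in the sources used here, so reads of these overlapping genes may not be told apart.

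After filtering, 9017 old and 8531 young barcodes were clustered without the 10 members and 43 other imprinted genes, so that the levels below did not make the classes. A cluster with the profile of empty droplets held 5539 old barcodes and 1 young barcode and is not described further. Classes were named from markers, and 17 were found, from 1132 old and 3946 young somatotroph-like cells to 38 old and 0 young oligodendrocyte-like cells. Pappa2 and Ghrhr were among the leading genes of all 4 somatotroph-like clusters and Gh of 1, Prl led the lactotroph-like cluster, and Tnnt1 led both corticotroph-like clusters with Tbx19 among their leading genes. Of the naming markers, Cyp11a1 was at 0 in old corticotroph-like cells and Slc12a8 was at 0 in lactotroph-like cells of both libraries. Of the barcodes in named classes, 3274 old and 8220 young, 14 carried the same barcode letters in both libraries. Levels are CPM, the UMIs of a gene per 1000000 UMIs of a class, counted without 7 hormone and 13 mitochondrial genes, and barcodes of at most 100 UMIs give the level in empty droplets of the same library. The old library also held 21765 and the young library 61147 barcodes with at least 500 but under 1000 UMIs, and whether these hold free RNA was not tested.

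Among the named classes Dlk1 was highest in somatotroph-like cells, the growth hormone cells, with 3148 CPM (3108 to 3188) in the old library and 4152 CPM (4127 to 4176) in the young library. Lactotroph-like cells, which make prolactin, followed at 1663 CPM in the old library and 2563 CPM in the young library. In the young library proliferating cell-like barcodes were level with them at 2571 CPM, their interval overlapping that of the lactotroph-like cells. Gonadotroph-like cells had 731 CPM in the old library and 1687 CPM in the young library, from only 32 and 63 cells. In these small gonadotroph-like sets 5 cells held 67.7% of the old and 56.7% of the young Dlk1 UMIs. Every other named class lay at or below 1127 CPM in the old library and 1330 CPM in the young library. An unnamed cluster led by Gh, was higher than all of these in the young library, at 5124 CPM, and had 3209 CPM in the old library.

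Free RNA bears on these values. It makes up only a part of the UMIs of a class, so a class below the empty droplets may still express the gene. Dlk1 stood at 2095 CPM in old and 2317 CPM in young empty droplets, so of the named old classes just the somatotroph-like cells were above the empty droplets, and of the young ones the somatotroph-like, lactotroph-like and proliferating cell-like barcodes were. The somatotroph-like level was 1.5 times that of the empty droplets in the old library and 1.79 times in the young library. Corticotroph-like cells had 435 CPM in the old library and 296 CPM in the young library, and melanotroph-like cells 482 and 376 CPM. Both lay at 0.23 times the empty droplets or lower.

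Meg3 was spread more widely over the hormone cells than Dlk1. In the old library lactotroph-like cells had 16370 CPM, somatotroph-like cells 12545 CPM, melanotroph-like cells 11539 CPM, corticotroph-like cells 8518 CPM and gonadotroph-like cells 5445 CPM, with no overlap of intervals between neighbours. In the young library the order began with melanotroph-like cells at 12404 CPM, then lactotroph-like cells at 11108 CPM and somatotroph-like cells at 10679 CPM, again with intervals clear of each other. Young gonadotroph-like cells had 5635 CPM and young corticotroph-like cells 4856 CPM. Empty droplets held 2852 CPM in the old library and 3556 CPM in the young library, so all 5 hormone classes were above them in both libraries. Some of the other classes were above them too. In the old library these were neutrophil-like (4809 CPM), B cell-like (3769 CPM) and pituicyte-like (3664 CPM) cells. In the young library they were erythroid cell-like (6885 CPM) and proliferating cell-like (5094 CPM) barcodes. In the classes just listed, 5 cells held 40.9%, 52.5%, 37.4%, 46.1% and 24.7% of the Meg3 UMIs, in that order. Of the 1311499 UMIs of young proliferating cell-like barcodes, 762706 were left without the hormone and mitochondrial genes. Stem cell-like barcodes, with the markers Sox2 and Aldh1a2, were below the empty droplets at 2391 CPM in the old library and 1489 CPM in the young library. Macrophage-like, endothelial cell-like and fibroblast-like cells were lower still, between 793 and 1686 CPM in the old library and between 410 and 773 CPM in the young library. Free RNA was estimated, from globin and hormone genes, at 16.6% of old and 10.7% of young stem cell-like UMIs. A level below the empty droplets thus does not mark Meg3 as absent from a class.

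Rian followed the same order as Meg3 in broad terms. It was highest in lactotroph-like (1541 CPM), somatotroph-like (1383 CPM) and melanotroph-like (1302 CPM) cells of the old library. In the young library melanotroph-like cells had 1482 CPM, somatotroph-like cells 1134 CPM and lactotroph-like cells 1050 CPM. Mirg was scarce, with 105 CPM in old and 99 CPM in young somatotroph-like cells, and neighbours among its 3 highest classes had overlapping intervals in each library. In B cell-like cells Mirg had 16 UMIs in the old library and 0 in the young library, where 3 UMIs would be 9.16 CPM.

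**Figure D1:**
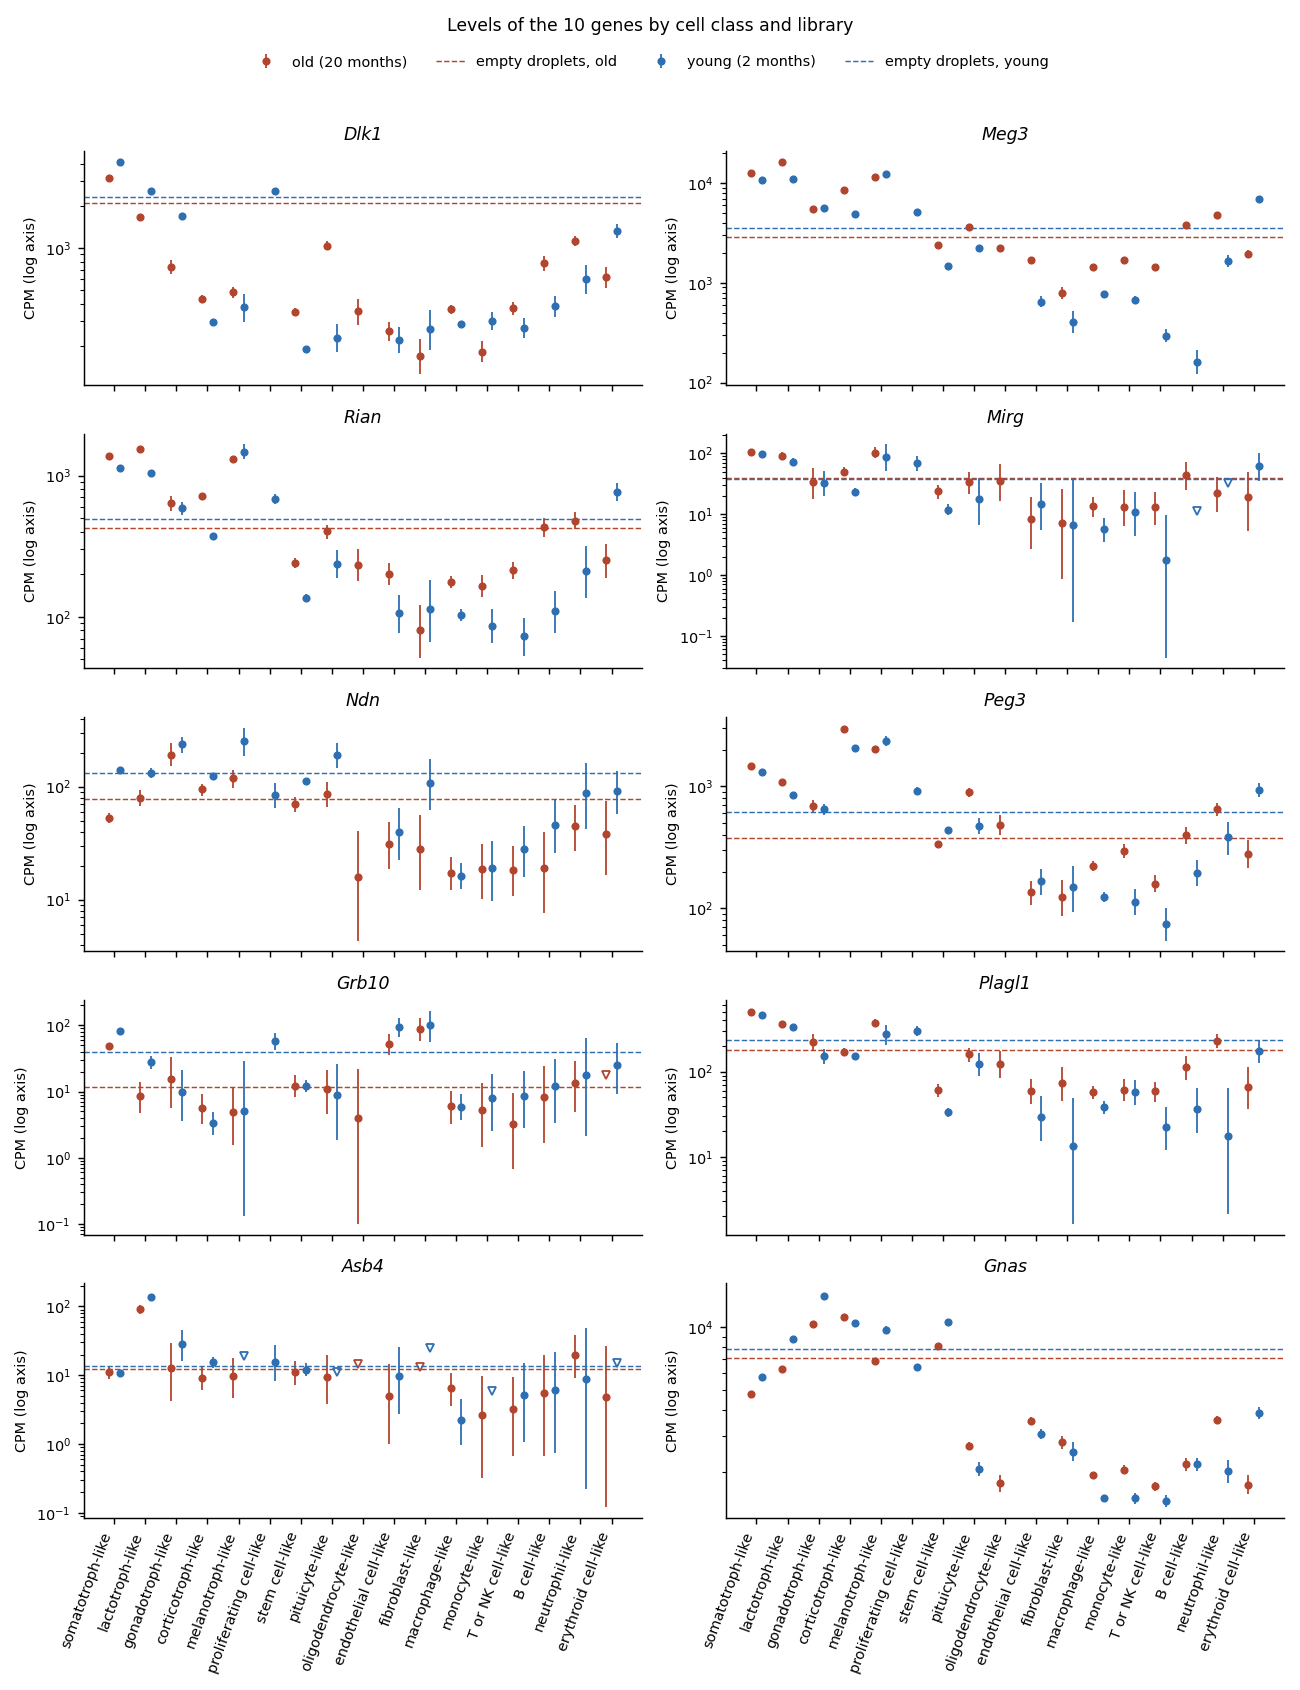
CPM (log axis) of each of the 10 genes by cell class, old to the left of young; points are class sums of 1 library, bars the 95% counting interval, open triangles the upper limit where no UMI was seen, and dashed lines the empty droplets. Dlk1 rises above the dashed lines in somatotroph-like cells at 3148 CPM in old and 4152 CPM in young, while Meg3 does so in all 5 hormone classes.

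The members outside the cluster had other orders. Peg3 was highest in the 2 classes that make Pomc: corticotroph-like cells had 2967 CPM in the old library and 2074 CPM in the young library, and melanotroph-like cells had 2030 and 2347 CPM. Plagl1 was highest in somatotroph-like cells, with 502 CPM in the old library and 462 CPM in the young library. Ndn was highest in gonadotroph-like cells (192 CPM old, 236 CPM young) and melanotroph-like cells (118 CPM old, 252 CPM young). Their Ndn intervals overlapped in the young library.

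Asb4 was concentrated in lactotroph-like cells, at 90.3 CPM in the old library and 138 CPM in the young library. No other class exceeded 20 CPM in the old library or 28 CPM in the young library, and empty droplets held 12.5 and 13.8 CPM. Grb10 was highest outside the hormone cells, in fibroblast-like cells (88.1 CPM old, 101 CPM young) and endothelial cell-like cells (52.5 CPM old, 94.1 CPM young). Somatotroph-like cells, with 48.9 CPM in the old library and 81.6 CPM in the young library, had intervals that overlapped those of endothelial cell-like cells. The fibroblast-like values rest on 25 old and 15 young UMIs. Their interval was clear of the somatotroph-like one in the old library (57 to 130 CPM) but overlapped it in the young library (56.4 to 166 CPM). Gnas ranged over the classes from 1710 to 11222 CPM in the old library and from 1454 to 14163 CPM in the young library. Empty droplets held 7106 CPM of Gnas in the old library and 7823 CPM in the young library. Somatotroph-like cells lay at 0.671 and 0.736 times these levels, and T or NK cell-like cells, the lowest, at 0.241 and 0.186 times. Corticotroph-like, gonadotroph-like and stem cell-like barcodes were the 3 highest of each library, and in the old library the only ones above the empty droplets. In the young library melanotroph-like and lactotroph-like cells were above them as well. Counts from the 3′ end do not separate the transcripts that start at the different Gnas promoters.

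**Figure D2:**
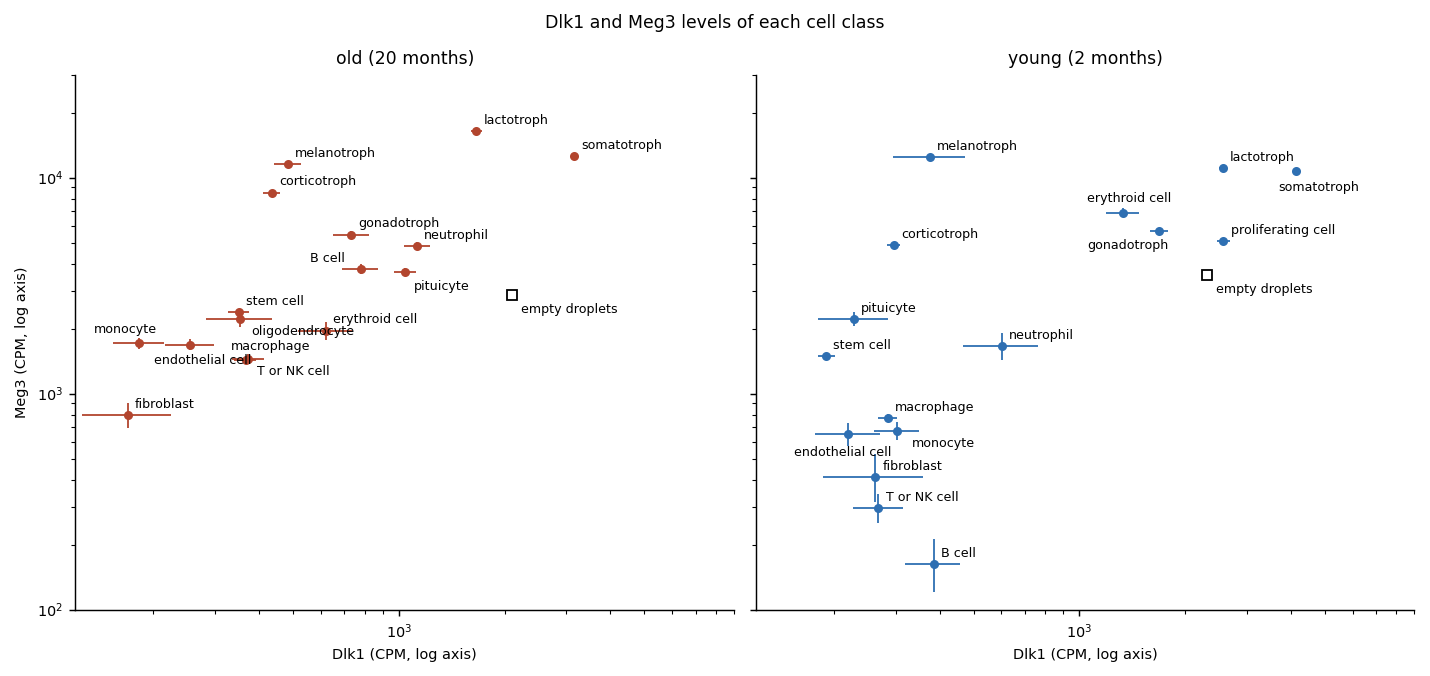
Meg3 against Dlk1 (CPM, both axes log) for each cell class, old in the left panel and young in the right panel, with 95% counting intervals; the open square is the empty droplets. Somatotroph and lactotroph classes lie at the upper right in both panels, while melanotroph and corticotroph classes have high Meg3 (4856 CPM or more) with Dlk1 below 500 CPM.

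The class profiles were set side by side by Pearson's correlation of log2(CPM + 5) over 32 sums of a class in a library, among 13939 genes. These points share the 2 libraries, their depth and their free RNA, and classes of both ages are not independent, so the values are a description. The gene most like Dlk1 was Pou1f1 (r = 0.930), the transcription factor of the somatotroph, lactotroph and thyrotroph lineage, which was also a naming marker of the somatotroph class. Lrrc10b (0.882), Nptxr (0.872), Htatsf1 (0.871) and Hsbp1l1 (0.867) came next. The profile most like Meg3 was that of its neighbour Rian (0.952), then Kif5c (0.942), Rims2 (0.939), Pclo (0.939) and Napb (0.933), which code for a kinesin motor, active zone proteins and a vesicle fusion factor of neurons and endocrine cells. Between members, Meg3 was closer to Mirg (0.906), Plagl1 (0.892) and Peg3 (0.881) than to its neighbour Dlk1 (0.671). For Mirg the most similar gene was B830012L14Rik (0.948). Usp29 (0.938) and Zdbf2 (0.933), both imprinted, were among the 5 genes most like Peg3. Of the members, Grb10 had the lowest correlation with Meg3 (-0.078).

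To ask whether the same cells carry Dlk1 and Meg3, every cell was thinned to 2000 UMIs, which left out no cell. Unlike for CPM, hormone and mitochondrial UMIs were part of the 2000. Gh took 32.7% of old and 43.8% of young somatotroph-like UMIs, against 4.85% and 7.42% in T or NK cell-like cells. The depth left for other genes thus differed between classes and ages. Among 1132 old somatotroph-like cells, 1020 had both genes, 11 Dlk1 only, 100 Meg3 only and 1 neither. Among 3946 young somatotroph-like cells, 3706 had both, 29 Dlk1 only, 209 Meg3 only and 2 neither. Both were thus present in 90.1% of old and 93.9% of young cells, the same shares (90.1% and 93.9%) that the single shares of each gene give when multiplied. With Meg3 in 98.9% of old and 99.2% of young cells, these values had almost no room to differ. The match therefore does not tell whether the genes go together. Nearly every cell of this class held both RNAs in both libraries.

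These shares need a background. In T or NK cell-like cells, which are not known to express either gene, Dlk1 was seen in 34.9% of old and 36.7% of young cells, and Meg3 in 54.4% of old and 22.4% of young cells at the same 2000 UMIs. Among stem cell-like barcodes, Meg3 was seen in 80.4% of old and 77.2% of young ones, and Dlk1 in 29.7% and 26.7%. The median depth before thinning was 5437 UMIs in old and 3998 in young T or NK cell-like cells, against 6506 and 9578 in somatotroph-like cells. Without thinning, Dlk1 was seen in 66.9% of old and 67.3% of young T or NK cell-like cells.

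Lactotroph-like cells mostly carried both genes as well, which were found together in 223 of 275 old cells and 343 of 435 young cells, with Meg3 alone in 50 and 86. Corticotroph-like cells differed from somatotroph-like and lactotroph-like cells in that Meg3 was often found without Dlk1. Meg3 alone was also the most common state in stem cell-like barcodes (152 of 276 old, 541 of 976 young) and old melanotroph-like cells (85 of 150). In corticotroph-like cells Meg3 was found in 90.8% of old and 87.6% of young cells, and Dlk1 in 36.6% and 37.7%, beside 34.9% and 36.7% in T or NK cell-like cells. The part of free RNA in the corticotroph Dlk1 was not tested. Corticotroph-like cells with Dlk1 had a median of 17.5 Meg3 UMIs in the old library, against 11 in those without, and rho between the genes was 0.22. In the young library both medians were 7 and rho was 0.03. Old corticotroph-like cells fell into 102 with both, 10 with Dlk1 only, 176 with Meg3 only and 18 with neither. Young corticotroph-like cells fell into 399, 74, 701 and 82 in the same order. The unnamed Gh-led cluster of 204 old and 310 young barcodes had the opposite balance: Dlk1 alone was found in 71 old and 207 young barcodes and Meg3 alone in 9 and 9. Its Dlk1 level was 3209 CPM in the old library and 5124 CPM in the young library, beside Meg3 at 1043 and 727 CPM. Its Malat1 level was also low, at 5271 CPM in the old library and 3503 CPM in the young library. Macrophage-like cells held both genes in 27.5% of old and 10.3% of young cells, against 21.9% and 8.43% from the multiplied single shares. For T or NK cell-like cells these were 17.8% and 9.52%, against 19% and 8.25%.

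Within somatotroph-like cells the amounts of both RNAs went in opposite directions. Over the thinned cells Spearman's rho between Dlk1 and Meg3 was -0.37 in the old library and -0.26 in the young library. Cells without Dlk1 had a median of 34 Meg3 UMIs in the old library (101 cells) and 27 in the young library (211 cells). Cells with Dlk1 had medians of 18 (1031 old cells) and 13 (3735 young cells). Meg3 and Rian went together (rho 0.66 old, 0.62 young), and Meg3 and Peg3 did so less (0.35 and 0.46). Ndn had a rho between -0.05 and 0.05 with every other member in both libraries, in counts of which most were 0. Cells of 1 library share its depth and free RNA, and the thinned UMIs include those of Gh, so these are descriptions.

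**Figure D3:**
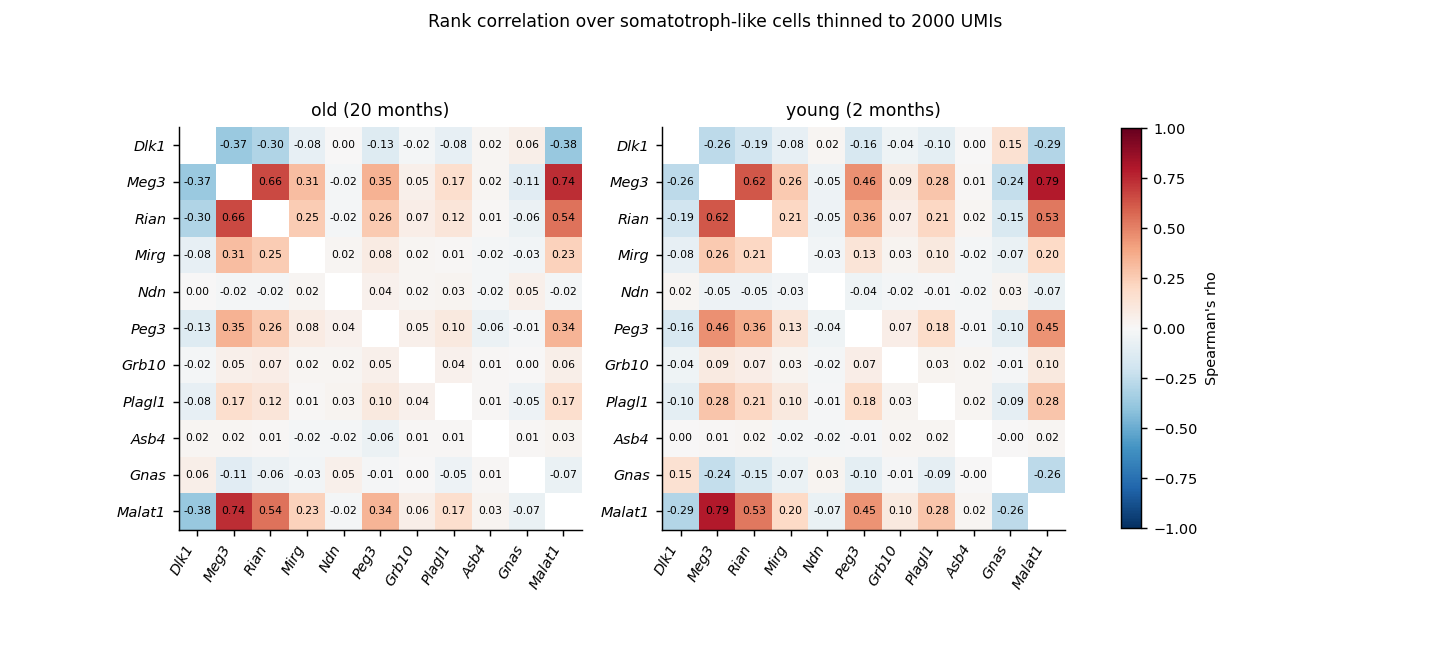
Spearman's rho between each pair of the 10 genes and Malat1 over somatotroph-like cells thinned to 2000 UMIs, with 1132 old cells in the left panel and 3946 young cells in the right panel. Meg3 and Rian form a red block with Malat1 in both panels, and Dlk1 is blue against Meg3 (-0.37 in old, -0.26 in young).

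Malat1, an abundant noncoding RNA kept in the nucleus, moved with these values. Its rho with Meg3 was 0.74 in the old and 0.79 in the young library, and with Dlk1 it was -0.38 and -0.29. Depth moved too: the rho of thinned Meg3 with the number of UMIs of a cell was -0.68 in old and -0.72 in young somatotroph-like cells, and that of Dlk1 was 0.36 and 0.27. The cells were therefore split into 4 bins by the share of Malat1 among their UMIs, here counted without the hormone and mitochondrial genes. The limits, common to both libraries, were 2.76%, 5.26% and 10.9%. The median depth was 13671 UMIs in old and 18098 in young cells of the lowest bin, and 3851 and 4207 UMIs in those of the highest.

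From the lowest to the highest bin, Dlk1 stood at 3881, 3513, 2868 and 1681 CPM in the old library and at 4956, 4149, 3164 and 2400 CPM in the young library. Meg3 took the opposite course, with 7304, 9020, 15165 and 24762 CPM in the old library and 6409, 8935, 18314 and 22846 CPM in the young library. Inside the bins the rho between Dlk1 and Meg3 was near 0 in the 2 lower ones and negative in the 2 higher ones: -0.01, -0.02, -0.23 and -0.09 in the old library and -0.01, -0.00, -0.18 and -0.15 in the young library. The rho between Meg3 and Rian stayed between 0.30 and 0.50 in the old bins and between 0.26 and 0.48 in the young bins. What sets the Malat1 share of a barcode was not tested.

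**Figure D4:**
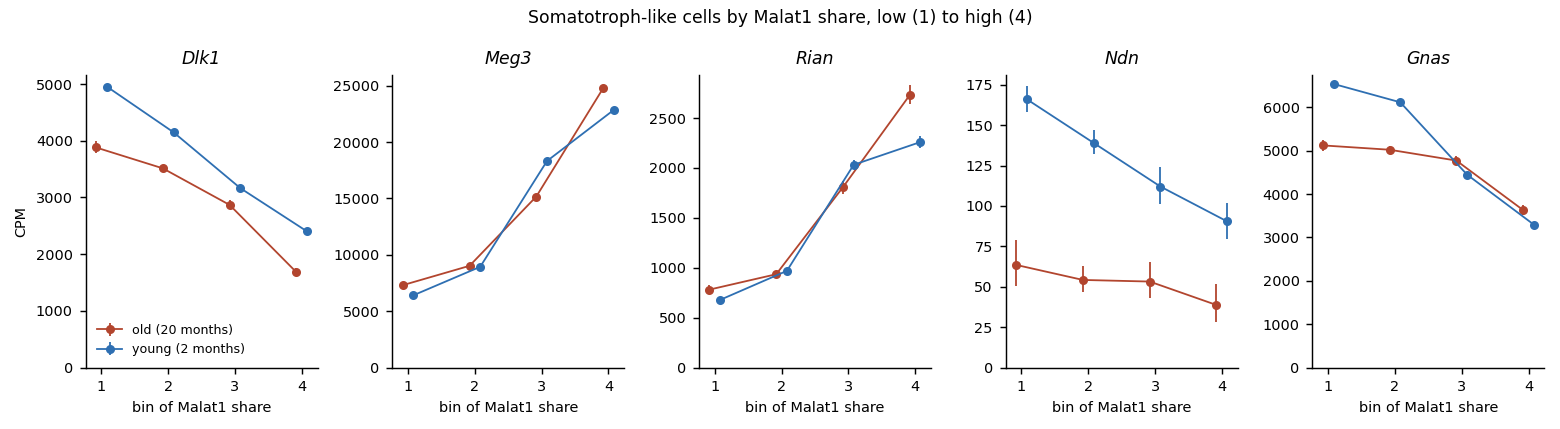
CPM of 5 genes in somatotroph-like cells split into 4 bins by Malat1 share, low to high, in the old and young library; bars are 95% counting intervals and axes start at 0. Dlk1 is lower and Meg3 and Rian are higher towards the Malat1-rich bin in both libraries, and old Ndn lies between 38.7 and 63.5 CPM, below young Ndn at 90.4 to 166 CPM in every bin.

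Between ages, Ndn was the member with the largest difference in somatotroph-like cells. It had 399 UMIs and 53.2 CPM in the old library, against 3764 UMIs and 141 CPM in the young library, which is 2.65-fold lower (2.39 to 2.95). The share of cells with Ndn at 2000 UMIs was 5.92% (4.62 to 7.46) in old and 13.1% (12 to 14.1) in young cells, beside 3.55% and 5.44% in T or NK cell-like cells. Ndn was lower in each Malat1 bin, with ratios of old over young of 0.382, 0.389, 0.475 and 0.428. The class was made of 4 clusters, and within each of them Ndn was lower as well, with ratios of 0.362, 0.526, 0.405 and 0.377. Ndn was also lower in old empty droplets (78.1 CPM, against 132 CPM in young ones, a ratio of 0.59). Old somatotroph-like cells lay below their empty droplets for Ndn (0.681 times) and young ones level with theirs (1.07 times).

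Dlk1 was lower and Meg3 slightly higher in old somatotroph-like cells, and neither reached 2-fold. The ratio of old over young was 0.758 (0.748 to 0.769) for Dlk1, which was below 1 in all 4 clusters (0.868, 0.823, 0.978 and 0.664) and in all 4 Malat1 bins (0.783, 0.847, 0.906 and 0.7). For Meg3 it was 1.17 (1.17 to 1.18), beside a Malat1 ratio of 1.31. The Meg3 ratio was 1.14, 1.01, 0.828 and 1.08 over the Malat1 bins and 0.991, 0.895, 1.15 and 1.14 over the clusters, and with only the middle bins its log2 was -0.05, so its direction was not the same throughout. A smaller share of old than of young cells was in the cluster of lowest Malat1, which had Gh and Dlk1 among its leading genes (89 of 1132 old cells, against 1554 of 3946 young cells). The clusters held 89, 177, 464 and 402 old cells, against 1554, 463, 611 and 1318 young cells. When the 4 clusters were given their young weights, the log2 ratio was -0.20 for Dlk1 (-0.40 unweighted) and 0.08 for Meg3 (0.23 unweighted).

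Of the other members in somatotroph-like cells, Grb10 had 48.9 CPM in the old library and 81.6 CPM in the young library, a ratio of 0.6 (0.535 to 0.67), beside 0.294 in empty droplets. Gnas had a ratio of 0.828 (0.818 to 0.838), with 4768 CPM in the old library and 5758 CPM in the young library. Rian (1.22), Peg3 (1.11) and Plagl1 (1.09) were slightly higher, and the intervals of Mirg (0.975 to 1.15) and Asb4 (0.798 to 1.32) included 1. Of the 10 members, 1 was at least 2-fold lower and 0 at least 2-fold higher, when 4.00% and 3.88% of the 14215 genes measured in this class were. The members had a median log2 ratio of 0.07, against 0.02 over all these genes.

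**Figure D5:**
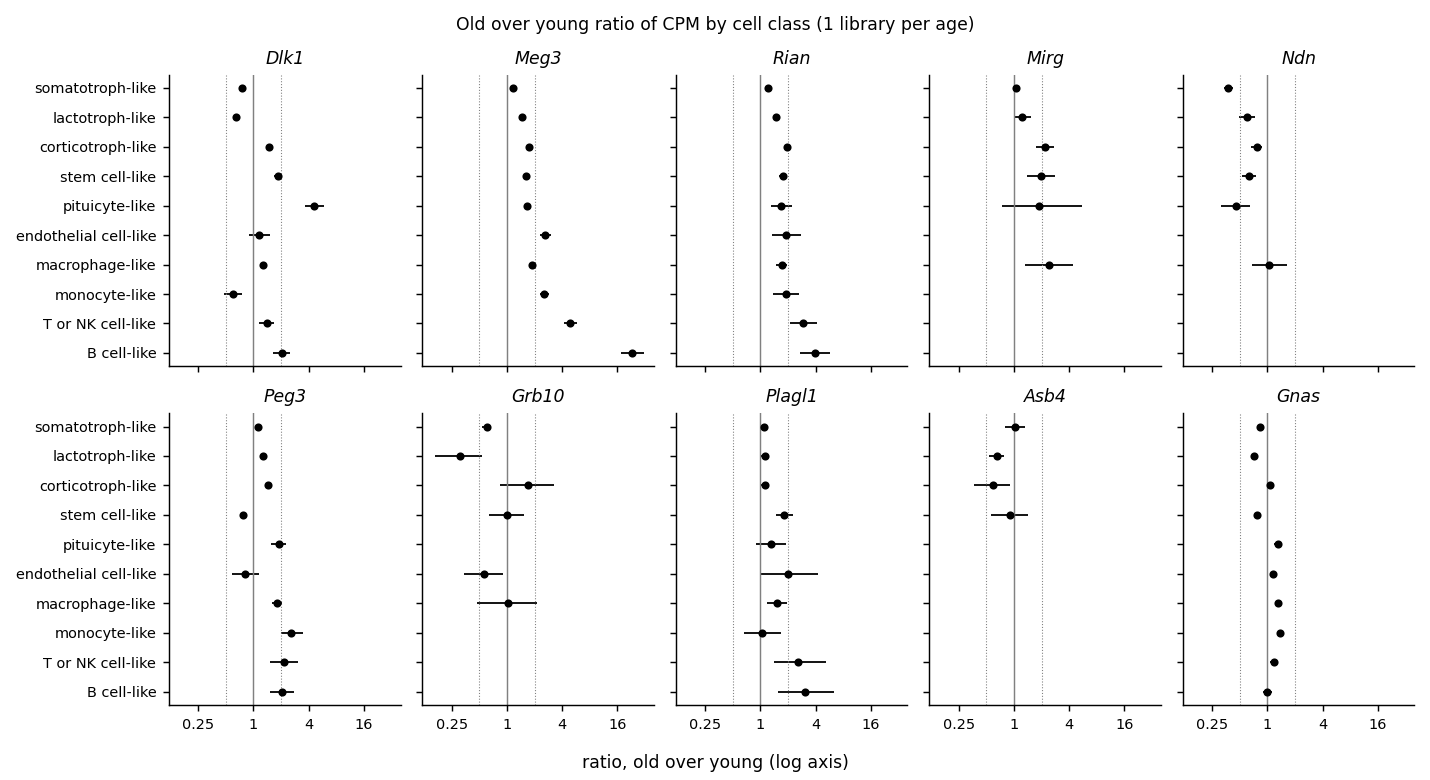
Ratio of CPM, old over young (log axis), of each gene in the 10 classes that had 50 cells or more per library, with 95% counting intervals from 1 library per age; dotted lines mark 2-fold, and a gene is shown where the higher library had at least 20 UMIs. Meg3 and Rian lie above 1 in all 10 classes, and Ndn lies below 1 in 5 of 6.

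In lactotroph-like cells, Dlk1 and Meg3 differed between ages in opposite directions. Dlk1 had 1663 CPM in the old library and 2563 CPM in the young library (ratio 0.649, 0.622 to 0.677), and Meg3 had 16370 and 11108 CPM (1.47, 1.45 to 1.5). Both directions held under all 10 alternatives of processing run for this class, with log2 ratios of -0.67 to -0.47 for Dlk1 and 0.56 to 0.72 for Meg3. Malat1 had a ratio of 1.44 in the same cells. The median depth was 5106 UMIs in old and 8493 UMIs in young lactotroph-like cells. Over these cells the rho of thinned Meg3 with depth was -0.54 in old and -0.68 in young, and that of Dlk1 was 0.17 and 0.13. Gh took 6.8% of old and 11.3% of young UMIs of the class. The part of depth and of Gh-bearing RNA in these ratios was not tested. Asb4, whose highest level is in this class, had a ratio of 0.655 (0.542 to 0.788). Grb10 had 15 UMIs (8.47 CPM) in the old library and 82 UMIs (27.7 CPM) in the young library, which is 3.27-fold lower (1.87 to 6.11), beside a ratio of 0.294 in empty droplets. Rian (1.47), Peg3 (1.28) and Mirg (1.24) were higher, Ndn (0.601) and Gnas (0.716) lower, and Plagl1 had a ratio of 1.11. Grb10 was the only one of 10 members at least 2-fold lower here and none was 2-fold higher, against 2.29% and 5.01% of 10635 genes.

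In corticotroph-like cells the noncoding genes of the cluster were higher in the old library. Meg3 had 8518 CPM in old and 4856 CPM in young cells (ratio 1.75, 1.73 to 1.78), Rian had 714 and 371 CPM (1.93, 1.82 to 2.04) and Mirg had 49.7 and 22.9 CPM (2.17, 1.72 to 2.72). The share of cells with Rian at 2000 UMIs was 60.5% in old and 37.1% in young cells. Malat1 had a ratio of 1.3, and the Meg3 direction held under all 10 alternatives, with log2 ratios of 0.71 to 0.89. Peg3, highest in this class, had a ratio of 1.43 (1.39 to 1.47). Ndn (0.762) and Asb4 (0.593) were lower, Plagl1 (1.11) and Gnas (1.08) were slightly higher, and the interval of Grb10 (0.844 to 3.26) included 1. Mirg was the 1 member of 10 at least 2-fold higher, and 0 were 2-fold lower, against 2.70% and 2.76% of 12351 genes. With doublets kept the Mirg log2 ratio was 0.83 and no longer past 2-fold, and it stayed past 2-fold in the other 9 alternatives.

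Stem cell-like barcodes showed higher Meg3 (ratio 1.61, 1.55 to 1.66) and Rian (1.76, 1.59 to 1.96) beside a Malat1 ratio of 1.3, and lower Gnas (0.764), Peg3 (0.768) and Ndn (0.629, 0.529 to 0.745). Plagl1 had a ratio of 1.82 and Mirg of 1.99, and the intervals of Grb10 (0.633 to 1.53) and Asb4 (0.561 to 1.41) included 1. No member passed 2-fold in either direction, against 2.04% lower and 2.75% higher of 12323 genes. Dlk1 had 350 CPM in old and 190 CPM in young stem cell-like barcodes (ratio 1.84), but 5 cells held 37.3% of its old UMIs, and its log2 ratio of 0.88 became -0.59 when doublets were kept. In corticotroph-like cells the Dlk1 log2 ratio of 0.56 became -0.19 in the same way. Both Dlk1 levels are below those of the empty droplets.

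Over all 10 classes, 82 pairs of a member and a class had at least 20 UMIs in the higher library. Of these, 3 were at least 2-fold lower in the old library and 15 at least 2-fold higher, against 2.44% and 5.49% of 84638 pairs over all genes. The 3 lower ones were Ndn in somatotroph-like and pituicyte-like cells and Grb10 in lactotroph-like cells. With no barcode removed as a doublet there were 3 higher and 6 lower pairs. That setting had no monocyte-like class, which held 2 of the 15 higher pairs, and had a neutrophil-like class instead. The change in the count thus mixes the removal of doublets with a changed set of classes. The count of higher pairs was 29 when an empty droplet profile was subtracted.

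Most of the higher pairs lay outside the hormone cells, with 2 in monocyte-like, 4 in T or NK cell-like and 5 in B cell-like cells, 1 each in endothelial cell-like, pituicyte-like and macrophage-like cells, and 1 in a hormone class, corticotroph-like cells. Of all genes measured in these classes, 13.1% were at least 2-fold higher and 2.07% at least 2-fold lower in B cell-like cells, 10.1% and 0.873% in the T or NK class, 5.54% and 1.35% in monocyte-like cells and 5.19% and 1.20% in macrophage-like cells. In pituicyte-like cells 10.9% were higher and 2.00% lower, and in endothelial cell-like cells 8.08% and 4.41%. With 7 members measured in endothelial cell-like, 8 in pituicyte-like and 9 in macrophage-like cells, the single higher pairs there are near that background. Meg3 had 1385 UMIs and 3769 CPM in 84 old B cell-like cells, against 53 UMIs and 162 CPM in 124 young ones, a ratio of 23.3 (17.7 to 31.3). Few cells made up this value: 5 of the 84 old cells held 52.5% of the Meg3 UMIs, and the median cell had 2, against a median of 0 in young cells. In T or NK cell-like cells the Meg3 ratio was 4.89 (4.17 to 5.78), with 48.9% of the old UMIs in 5 of 169 cells. Meg3 was above 1 under every alternative run for these classes, with log2 ratios of 1.59 to 4.54 for the B class and 0.53 to 2.32 for the T or NK class. Dlk1 (2.02), Rian (3.91), Peg3 (2.03) and Plagl1 (3.05) were the other members past 2-fold in B cell-like cells. Gnas, the 6th member measured there, had a ratio of 1. In T or NK cell-like cells Rian (2.92), Plagl1 (2.59) and Peg3 (2.13) were past 2-fold beside Meg3, and Dlk1 (1.39) and Gnas (1.18) were not.

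Markers of somatotroph-like cells moved with some of these values. The summed level of the 5 somatotroph markers other than Gh (Ghrhr, Pappa2, Pou1f1, Neurod4 and Ghsr) was 215 CPM in old and 91.6 CPM in young B cell-like cells, with 3 of 5 higher in the old library. Gh itself took a slightly smaller share of all UMIs of that class, 10.3% in old and 10.8% in young cells, and 4.85% in old and 7.42% in young T or NK cell-like cells, but 7.76% and 5.33% in pituicyte-like cells. The sum of the 5 was 86.6 and 50.4 CPM in T or NK cell-like cells (3 of 5 higher), 177 and 60 CPM in pituicyte-like cells (4 of 5) and 86.3 and 36.2 CPM in stem cell-like barcodes (4 of 5), and Ghsr was at 0 in these 4 classes of both libraries. In endothelial cell-like cells the sum was 52.5 CPM in the old library and 71.8 CPM in the young library, and in monocyte-like cells 43.9 and 77.2 CPM, with 1 of 5 higher in each. Somatotroph-like cells themselves had 805 CPM in the old library and 758 CPM in the young library. The share of UMIs that an empty droplet profile could account for, estimated from globin genes and hormone genes other than Prl, was 32.4% in old and 26.3% in young B cell-like cells, 16.3% and 18% in T or NK cell-like cells, and 25.5% and 12.8% in pituicyte-like cells. The part of free RNA and of these markers in the ratios of the members was not tested.

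Pituicyte-like cells, the glia of the posterior lobe, had Dlk1 at 1043 CPM in the old library and 228 CPM in the young library, a ratio of 4.57 (3.61 to 5.87). Of the 776 old UMIs, 5 of 88 cells held 53.5%, the median cell had 1 and the highest 98. In young cells the median was also 1. Ndn had 86 CPM in old and 189 CPM in young pituicyte-like cells, 2.2-fold lower (1.53 to 3.16). Meg3 was also past 2-fold in endothelial cell-like (2.6) and monocyte-like (2.55) cells, where 5 cells held 60.4% and 62.9% of the old UMIs. Peg3 had a ratio of 2.59 in monocyte-like cells, and Mirg one of 2.39 in macrophage-like cells, from 29 old and 20 young UMIs.

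The other measured members of these classes did not pass 2-fold. In pituicyte-like cells Peg3 (1.88), Mirg (1.87), Rian (1.69), Meg3 (1.65), Gnas (1.29) and Plagl1 (1.29) had ratios above 1. In endothelial cell-like cells the ratio was 1.99 for Plagl1, 1.9 for Rian, 1.16 for Gnas, 1.15 for Dlk1, 0.811 for Peg3 and 0.558 for Grb10. In monocyte-like cells it was 1.9 for Rian, 1.38 for Gnas, 1.05 for Plagl1 and 0.602 for Dlk1. In macrophage-like cells it was 1.86 for Meg3, 1.8 for Peg3, 1.7 for Rian, 1.5 for Plagl1, 1.29 for Gnas, 1.28 for Dlk1, 1.05 for Ndn and 1.02 for Grb10.

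Not every 2-fold pair stayed past 2-fold under the alternatives of processing. Ndn in somatotroph-like, Grb10 in lactotroph-like, Dlk1 in pituicyte-like and Meg3 in B cell-like and monocyte-like cells did so in all those run. These numbered 13, 10, 8, 9 and 7 in that order. With doublets kept there was no monocyte-like class, so Meg3 there was not put through that setting. Dlk1 in B cell-like cells stayed past 2-fold in 3 of 10. Peg3 in B cell-like and in T or NK cell-like cells and Mirg in macrophage-like cells stayed so in 6 of 10 each. Each of the remaining 9 pairs lost it in 1 or 2 alternatives. In T or NK cell-like cells Meg3 fell short at 3000 UMIs (0.73) and with doublets kept (0.53), as log2 ratios.

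Across classes, Meg3, Rian and Plagl1 had ratios above 1 in all 10 classes, from 1.17 to 23.3, from 1.22 to 3.91 and from 1.05 to 3.05. Their directions in somatotroph-like cells did not hold under every setting: Meg3 and Rian were slightly below 1 in the middle Malat1 bins and Plagl1 without the lowest bin. The Plagl1 log2 ratio also turned to -0.05 in lactotroph-like and -0.09 in pituicyte-like cells as the mean of per-cell CPM, and to -0.04 in corticotroph-like cells with doublets kept. Malat1 was higher in the old library in all 10 classes as well, by 1.13 to 1.81, whereas in old empty droplets Malat1 (0.385) and Meg3 (0.802) were both lower than in young ones. The part of Malat1 in the Meg3 ratios was not tested. Ndn was below 1 in 5 of the 6 classes where it was measured, the exception being macrophage-like cells (1.05, 0.677 to 1.62), where 6 of 10 alternatives put it below 1. Gnas stayed between 0.716 and 1.38 in all 10 classes.

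Of 43 further imprinted genes, 31 were measured in somatotroph-like cells. Of these 2 were at least 2-fold higher and 1 was at least 2-fold lower, near the 3.88% and 4.00% of all genes of the class, and the median log2 ratio was 0.15, against 0.02 over all genes. Rasgrf1, a guanine nucleotide exchange factor, had 180 UMIs (24 CPM) in the old library and 102 UMIs (3.82 CPM) in the young library, a ratio of 6.28 (4.89 to 8.08). Peg10, a gene derived from a retrotransposon, had 31.1 CPM in the old library and 12 CPM in the young library, a ratio of 2.6 (2.18 to 3.08). Slc38a4, an amino acid transporter gene, had 1 UMI in the old library and 23 in the young library, a ratio of 0.155 (0.00375 to 0.952). The 5 highest there were Nnat (3615 CPM old, 4023 CPM young), Kcnq1ot1 (943 and 703 CPM), Nap1l5 (373 and 407 CPM), Zdbf2 (366 and 296 CPM) and Ube3a (265 and 216 CPM). None of these 5 differed by more than 1.34-fold.

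The other imprinted genes were mostly above 1 in the immune classes, as the members were. All 8 measured in B cell-like cells, all 12 in T or NK cell-like cells and all 22 in macrophage-like cells had ratios above 1, with median log2 ratios of 1.30, 0.55 and 0.48, against 0.17, 0.21 and 0.21 over all genes. Of all genes measured, 61.7%, 67.8% and 69.3% were above 1 in these classes. In lactotroph-like cells 13 of 27 were above 1, against 57.5% of all genes, with a median of -0.02, against 0.10. In corticotroph-like cells 16 of 28 were above 1, against 57% of all genes, with a median of 0.09, against 0.07.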

How the data were processed

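Raw UMI counts per gene and barcode were deposited by the authors for all observed barcodes of both libraries, with no cell calling and no normalisation. Cell Ranger 6.0.2 and the build GRCm39 are named in the submitters' processing notes, without saying which step each served.

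Barcodes with at least 2000 UMIs, at least 500 genes and at most 15% mitochondrial UMIs were kept, and the highest Scrublet scores were removed at 0.8% per 1000 barcodes (766 old, 679 young), since its automatic threshold called only 3 and 0. Both libraries were clustered together (3000 variable genes, 40 components, 15 neighbours, Leiden resolution 1) without the members and 43 other imprinted genes. Clusters were named from markers for 21 classes. CPM, ratios of old over young and exact Poisson, conditional Poisson and Clopper-Pearson intervals were computed from summed counts. Ratios needed 50 cells in each library and 20 UMIs in the higher one, and levels 25 cells. A member was counted as different from 2-fold on. The rule named all members measured in every such class, with the other imprinted genes past 2-fold or among the 5 highest in somatotroph-like cells, and the 5 genes most like Dlk1 and like Meg3. Those most like Mirg and Peg3 were named after their values were seen. The members, lists and markers were chosen with earlier results of these data known. No test was made, since cells of 1 library are not replicates, and pooled animals cannot be told apart.

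In a check on simulated counts, 100 genes were changed 2-fold and 100 were changed 4-fold in each of 2 classes, and every one came out in the direction it was given. In somatotroph-like cells, among 10394 genes, the intervals covered the simulated fold in 93% (2-fold) and 93% (4-fold) of cases. In corticotroph-like cells, among 7525 genes, they did so in 98% and 96%. These genes were fewer than the 14215 and 12351 measured in the same classes. Smaller classes, where few cells can hold much of a count, were not simulated, so the check does not bear on their ratios. Simulated counts also cannot tell whether counting error is the only error in real cells. The software was matplotlib 3.10.9, igraph 0.11.9, scikit-learn 1.9.0, pandas 2.3.3, scipy 1.17.1, numpy 2.4.6, anndata 0.12.19 and scanpy 1.11.5 under Python 3.11.15.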

Additional observations from a re-analysis of the deposited data

How the results depend on the processing

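With 1 library per age, neither the mice nor the preparation can be told apart from age, and small classes rest on few cells. In somatotroph-like cells the log2 ratio of old over young was -0.40 for Dlk1, 0.23 for Meg3 and -1.41 for Ndn. It became -0.13, 0.50 and -1.14 with a total of all UMIs, which shifts every ratio of this class by 0.27 (lactotroph-like cells by 0.16). Dlk1 and Meg3 became -0.38 and 0.21 without doublet removal, -0.20 and 0.08 with each cluster given its young weight, and -0.43 and 0.19 as the mean of per-cell CPM. They were -0.23 and -0.05 in the middle Malat1 bins and -0.27 and 0.01 without the lowest bin, both chosen after seeing the data. Meg3 alone moved to 0.22 at 3000 UMIs, 0.31 at 10% mitochondrial UMIs, 0.23 at resolution 0.5, 0.28 with free RNA subtracted and 0.19 with the unnamed Gh-led cluster added, the last also chosen after seeing the data. Dlk1 and Ndn were below 0 in every alternative run. The 3 lower pairs became 6 without doublet removal and 1 at 100 UMIs, and the 15 higher ones became 3 without doublet removal and 29 with free RNA subtracted. Without doublet removal the monocyte-like class was missing from these counts and a neutrophil-like class was added. Peg3 in T or NK cell-like cells turned to -0.13 at 3000 UMIs. Of 908 values of single genes and classes, 711 moved by less than their interval and 196 by more, and the Peg3 value is the 1 called value that turned. The cause was not tested. No paired analysis was possible because each age has 1 library.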
